A study of Craterostigma plantagineum with 12 samples.

Results

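In the resurrection plant Craterostigma plantagineum, which can dry out and revive, the leaf transcriptome at about 60% relative water content (RWC) was set against every other state of a drying and rewatering cycle. The 3 libraries at 60% RWC, of 12 in all, were compared with the equal-weight mean of the 3 other states, and a transcript was said to peak at 60% RWC when it was also higher than in each of these states, and to dip when it was lower than in each. Of 48045 assembled contigs 46494 were tested, and 2276 of them peaked and 1374 dipped. The other states were fresh leaves at 100% RWC, desiccated leaves at 2% RWC, and leaves revived by submerging dried plants for 24 h, with 3 libraries each. All plants were propagated vegetatively and grown at a relative humidity of 60%, under a light period of 14 h and a dark period of 8 h, and no transgene or applied hormone is named in the labels. Drying in the pot took 3 to 4 days to 60% RWC and 15 days to 2% RWC, and the rehydrated plants had first been dried in the same way. The 3 libraries of a state are separate leaf pools, each taken from 6 to 9 plants. Watered plants of matching age are not among the libraries, so water content and days without water cannot be told apart. A contig is an assembled piece of a transcript, and several can come from 1 gene, so the numbers below are not numbers of genes.

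At 60% RWC a leaf of this species is losing water but has not reached the dry state that it can survive for long periods. In plants, water loss raises abscisic acid (ABA), which binds soluble receptors of the PYR/PYL family. The bound receptors hold back protein phosphatases of type 2C, SnRK2 kinases are released, and these activate bZIP transcription factors that bind ABA-responsive promoters. Among the known products of this program are late embryogenesis abundant (LEA) proteins and dehydrins, hydrophilic proteins first described in maturing seeds, together with enzymes of soluble sugars, lipid droplet proteins and enzymes that remove reactive aldehydes.

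Reads were counted per contig, with 14784251 to 21271288 reads per library, and levels are given as RPKM, which divides reads by the contig's length and the size of the library. The libraries at 60% RWC lay close to each other. Their common biological coefficient of variation was 0.143, against 0.136 at 2% RWC, 0.265 after rehydration and 0.537 in fresh leaves. Green leaf markers, which are Rubisco small chains and chlorophyll a-b binding proteins, were read in every state. They took 1.71 to 2.97% of reads in the fresh libraries, 0.396 to 0.447% at 60% RWC, 0.25 to 0.372% at 2% RWC and 1.3 to 1.89% after rehydration. In bulk leaf RNA, fewer cells of a type and less RNA per cell cannot be told apart. Intervals and bounds made from reads cover counting error only, because the table holds no molecular identifiers.

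Transcripts that peaked made up a large part of the RNA at 60% RWC. The 2276 contigs took 21.7 ± 0.504% of reads at 60% RWC (SD, n = 3), against 2.82 ± 0.172% in fresh leaves, 5.47 ± 0.372% at 2% RWC and 3.03 ± 0.382% after rehydration. The 1374 contigs that dipped took 1.45 ± 0.0219% of reads at 60% RWC, against 5.8 ± 0.594%, 4.72 ± 0.313% and 6.46 ± 0.756% in the same order. These shares describe contigs chosen by their levels and carry no test. Contigs that peaked were 4.9% of all contigs tested and contigs that dipped 2.96%, in edgeR's quasi-likelihood test with a Benjamini-Hochberg adjusted p below 0.05 in the comparison with the mean and in each of the 3 pairwise comparisons. Contigs of either kind were 3650, or 7.85%. Of those that peaked 2270 had all 3 libraries at 60% RWC above the 9 others, as had 8.46% of all contigs, and of those that dipped 1269 had them below, as had 5.24%. The rule chose the contigs by this difference, and nothing is read from these counts. The 3 pairwise comparisons share the 60% RWC libraries and are not independent of each other. At least 2-fold from every other state were 1588 contigs that peaked (3.42% of all tested) and 1048 that dipped (2.25%).

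**Figure D1:**
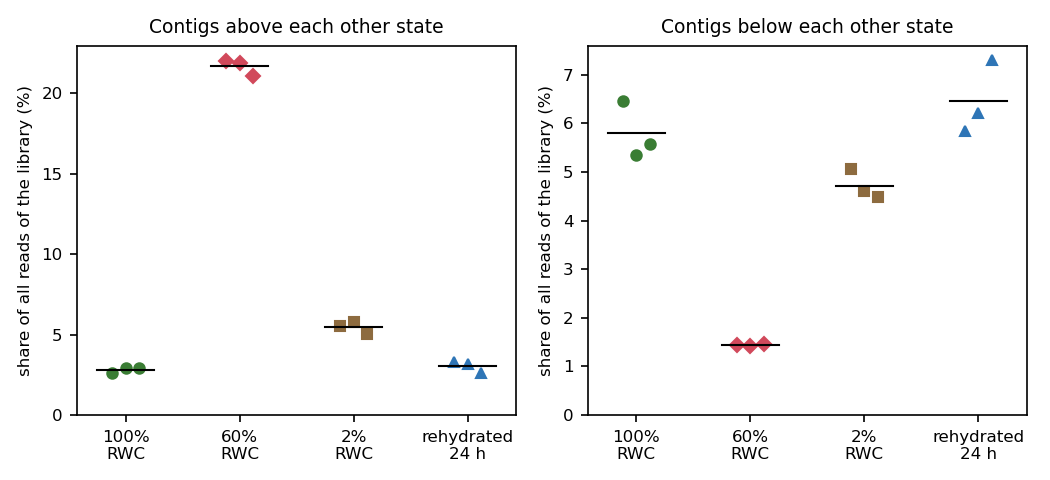
Share of all reads of a library (%) taken by the contigs above each other state (left) and below each other state (right), with 1 point per library, 3 libraries per state, and a line at the mean. The 60% RWC libraries stand at 21.7% on average on the left and at 1.45% on the right, outside the range of the other states, as the choice of the contigs fixes.

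Most contigs that differed from the mean of the other states did not stand apart from all of them. In the comparison with the mean, 7631 contigs were higher (16.4% of all tested) and 6793 lower (14.6%), the latter 4011, 4255 and 3950 without 60% RWC replicate 1, 2 or 3. Of the higher ones 29.8% peaked, 42.8% were higher than exactly 2 states, and 353 were called lower at 60% RWC than at 2% RWC although they lay above the mean of the 3 states. Of the lower ones 20.2% dipped, and 482 were called higher at 60% than at 2% RWC. Against single states, 7241 contigs were higher and 10848 lower than in fresh leaves (15.6 and 23.3% of all tested), 11617 higher and 9089 lower than at 2% RWC (25.0 and 19.5%), and 8125 higher and 9096 lower than after rehydration (17.5 and 19.6%). The splits moved with the scaling. Against rehydrated leaves higher contigs were 47.2% of those called with TMM factors and 30.5% with library totals alone. The same shares were 40.0 and 31.4% against fresh leaves and 56.1 and 62.4% against 2% RWC. In the comparison with the mean they were 52.9 and 44.1%, and 47.3% in the DESeq2 test. For 1247 of the 2276 contigs that peaked (54.8%) the state nearest in level was 2% RWC, for 617 fresh leaves and for 412 rehydrated leaves. Among the contigs that dipped the nearest state was 2% RWC for 606, fresh leaves for 432 and rehydrated leaves for 336. The number of contigs that dipped rested on each 60% RWC library, at 827, 854 and 775 without replicate 1, 2 or 3, while 1705 to 2670 contigs peaked when any 1 library was left out. In the authors' deposited table, whose test runs over the 4 states, an FDR below 0.05 stands beside 2262 contigs that peaked (99.4%), 952 that dipped (69.3%) and 57.6% of all tested contigs.

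Tonoplast aquaporins, water channels of the vacuole membrane, included the most abundant described contig of those at least 2-fold above every other state. Gamma-tonoplast intrinsic protein 3 (Cp_V2_contig_1109) stood at 12299, 12384 and 12619.5 RPKM in the 60% RWC libraries, against 591, 381 and 517 in fresh leaves, 476, 677 and 276 at 2% RWC and 359.8, 313 and 178 after rehydration. The fresh and 2% RWC libraries overlapped, and every 60% RWC library lay far above the 9 others. Its mean level was 25-fold that of fresh leaves, 26.1-fold that of 2% RWC and 43.8-fold that of rehydrated leaves, with a log2 fold against the mean of 5.01 (SE 0.27, adjusted p = 1.49e-07). Aquaporin TIP1-1 was likewise far above in Cp_V2_contig_1841, at 7262, 6867 and 6947 RPKM at 60% RWC, 281, 204 and 299 in fresh leaves, 261, 375 and 141 at 2% RWC and 191, 173 and 88 after rehydration, with a log2 fold against the mean of 5.10 (SE 0.28, adjusted p = 1.82e-07). A second TIP1-1 contig (Cp_V2_contig_6447) had a mean of 1541 ± 186 RPKM (SD, n = 3) at 60% RWC and was 19.1-fold above fresh leaves. These were 3 of 11 tonoplast aquaporin contigs. The family was divided: of those 11 contigs 7 were lower at 60% RWC than in fresh leaves, and of 11 plasma membrane aquaporins 7 were lower than in fresh leaves and 7 higher than at 2% RWC. None of the plasma membrane aquaporins peaked in edgeR, DESeq2 or limma voom, nor with unadjusted p. In the list of aquaporins by name, which leaves out the gamma-type contig, 4 of 34 peaked, the 2 TIP1-1 contigs and the small basic intrinsic proteins SIP1-1 and SIP1-2, and the list took 0.54 to 0.596% of reads at 60% RWC, against 0.0986 to 0.222% in fresh leaves, 0.0305 to 0.0491% at 2% RWC and 0.098 to 0.125% after rehydration.

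**Figure D2:**
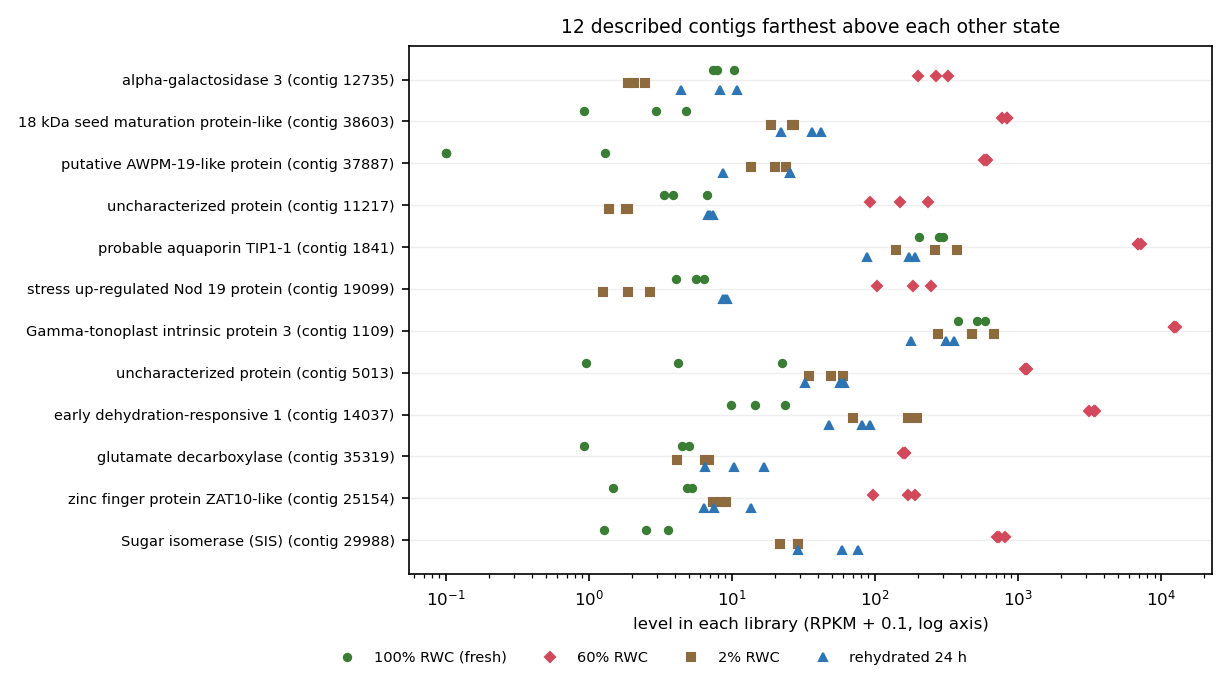
Level of 12 described contigs, 1 per description and with no overlap between 60% RWC and other libraries, with the largest distance above each other state within the upper 50% of contigs by mean level, as RPKM + 0.1 on a log axis, with 1 symbol per library and 3 libraries per state. In every row the 60% RWC libraries lie above the 9 others, and for most contigs the 2% RWC or rehydrated libraries come next.

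Other contigs far above every state encode seed-type protective proteins and enzymes of sugar and amino acid metabolism. An 18 kDa seed maturation protein-like contig (Cp_V2_contig_38603) stood at 838, 836 and 773 RPKM at 60% RWC, 4.69, 0.827 and 2.83 in fresh leaves, 26.1, 27.1 and 18.6 at 2% RWC and 41.6, 36.2 and 22.1 after rehydration. It was nearly silent in fresh leaves, and its log2 fold against the mean was 6.04 (SE 0.33, adjusted p = 1.96e-07). A putative AWPM-19-like protein (Cp_V2_contig_37887), a membrane protein family named after a wheat protein linked to ABA and freezing tolerance, stood at 601, 608 and 576 RPKM at 60% RWC and 19.8, 23.8 and 13.5 at 2% RWC. Fresh replicate 1 held 1.2 RPKM and the other fresh libraries no read. Early dehydration-responsive 1 (Cp_V2_contig_14037) stood at 3156, 3447 and 3421 RPKM at 60% RWC, 14.4, 9.72 and 23.4 in fresh leaves, 169, 197 and 70 at 2% RWC and 92.2, 81.3 and 47.6 after rehydration, 23-fold above 2% RWC. It was 1 of 4 contigs of that description, of 7 tested, that peaked. The 4 lay at 1855 to 4472 RPKM at 60% RWC. Alpha-galactosidase 3 (Cp_V2_contig_12735), which removes galactose from raffinose-type sugars, went from 7.23, 7.81 and 10.3 RPKM in fresh leaves to 324, 265 and 201 at 60% RWC and then stood at 2.38, 1.77 and 1.96 at 2% RWC. Its distance from the nearest state, fresh leaves, was the largest among the described contigs of the upper 50% by level, with a log2 fold of 5.07 (SE 0.35, adjusted p = 1.52e-06). A sugar isomerase contig of the SIS family (Cp_V2_contig_29988) had 716, 814 and 738 RPKM at 60% RWC, 28.8, 28.8 and 21.6 at 2% RWC and 76.6, 58.8 and 28.7 after rehydration. A stress up-regulated Nod 19 protein (Cp_V2_contig_19099) and a contig without a named function (Cp_V2_contig_11217) had high but uneven levels at 60% RWC, 185, 248 and 104 and 150.1, 233 and 92.3 RPKM, and their lowest levels at 2% RWC, 1.83 ± 0.703 and 1.59 ± 0.27 (mean ± SD).

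The highest level of all contigs that peaked by at least 2-fold belonged to a contig with no description (Cp_V2_contig_26669). It stood at 16820.0, 16658 and 15157 RPKM at 60% RWC, 3182, 4225 and 2459 at 2% RWC, 269, 299 and 221 after rehydration and 3.29, 10.5 and 4.02 in fresh leaves, an order with no overlap between states. Outer envelope pore protein 16-2 (Cp_V2_contig_7031), a channel of the chloroplast envelope for amino acids, had 7945, 8928 and 7929.5 RPKM at 60% RWC, 252, 79.3 and 178 in fresh leaves, 1039, 1134 and 699 at 2% RWC and 302, 301 and 199 after rehydration. It was 8.64-fold above 2% RWC and 48.8-fold above fresh leaves, with a log2 fold against the mean of 4.63 (SE 0.29, adjusted p = 5.98e-07). A second contig with no description (Cp_V2_contig_6504) had a mean of 8109 ± 964 RPKM (SD, n = 3), 2.35-fold above 2% RWC.

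Late embryogenesis abundant and other desiccation proteins held 19 contigs that peaked and 2 that dipped among 87 tested, that is 21.8%, against 4.9% of all contigs. The median log2 fold of the list against the mean was 2.94, against -0.01 over all contigs, and its median against 2% RWC was -0.04. The peak count moved both ways with the libraries, at 12 and 11 without 2% RWC replicate 1 or 3 and 25 without fresh replicate 1. In limma voom it was 30. LEA protein D-29 (Cp_V2_contig_22361) showed a clear peak, at 3339, 3802 and 3179 RPKM at 60% RWC, 4.83, 3.96 and 2.18 in fresh leaves, 209, 287 and 144 at 2% RWC and 167, 133 and 62.2 after rehydration. All 60% RWC libraries lay above the others, and the log2 fold against 2% RWC was 3.90 (SE 0.43, adjusted p = 4.96e-05). The dehydrin contig Cp_V2_contig_19242 stood at 3215, 3312 and 2900.4 RPKM at 60% RWC, 178, 205 and 166 at 2% RWC, 370.3, 298 and 179 after rehydration and 84.4, 35.9 and 51.7 in fresh leaves, 17.2-fold above 2% RWC. The rehydrated level of this dehydrin lay nearest to that at 60% RWC. LEA protein Dc3 (Cp_V2_contig_9033) had 7605, 7618 and 7151 RPKM at 60% RWC and 1399.6, 1636 and 968 at 2% RWC, a smaller step, with a log2 fold of 2.37 (SE 0.60, adjusted p = 0.00802). Another Dc3 contig (Cp_V2_contig_44929) had a like level, 8006 ± 1026 RPKM (SD, n = 3), and its call against 2% RWC was lost without 2% RWC replicate 1 or 3. Dehydrin 1 (Cp_V2_contig_15111) is a case at the edge of the definition, at 8251, 8966 and 8670.3 RPKM at 60% RWC and 4482, 4802 and 5168 at 2% RWC, with a log2 fold of 0.72 (SE 0.24, adjusted p = 0.0287) and a call that was lost without any 1 of the 60% or 2% RWC libraries. Of the LEA contigs that dipped, both at a low level, 1 was lost without any 1 of the 60% RWC libraries or rehydrated replicate 3. The one farther from the others (Cp_V2_contig_13268) had 0.308, 1.08 and 1.08 RPKM at 60% RWC and 11.3 ± 5.53, 10.5 ± 2.04 and 12.1 ± 4.57 (mean ± SD) in fresh, 2% RWC and rehydrated leaves.

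Protein families of seed maturation and cold response that the list's words do not hold, chosen after their values were seen, also stood high at 60% RWC. Of 13 contigs described as low-temperature-induced 65 kDa proteins, ABA-responsive proteins known from Arabidopsis, 11 peaked, at 386 to 1341 RPKM, with 7 and 6 left without 2% RWC replicate 1 or 3. Of 15 contigs of embryonic protein DC-8, a LEA protein of carrot embryos, 8 peaked, and 13 did without fresh replicate 1. The highest of those that peaked (Cp_V2_contig_13762) stood at 3178, 3126 and 3075 RPKM at 60% RWC, 595, 718 and 681 at 2% RWC and 136, 121 and 72.6 after rehydration, against 10.8, 3.37 and 3.9 in fresh leaves. The DC-8 contigs together took 2.01 ± 0.0761% of reads at 60% RWC and 0.571 ± 0.054% at 2% RWC (SD, n = 3).

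**Figure D3:**
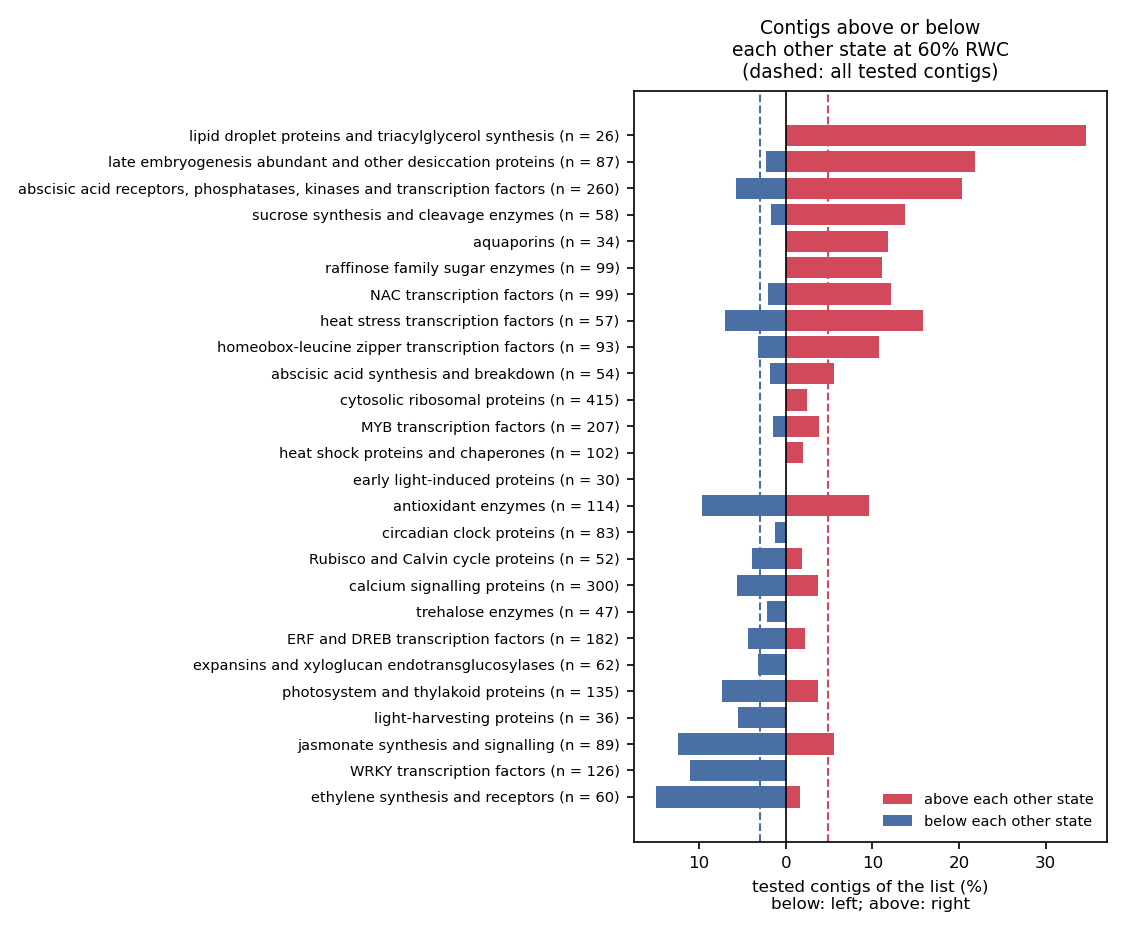
Share of the tested contigs of 26 core lists (%) that lay above each other state at 60% RWC (bars to the right) or below each (bars to the left), with n the number of contigs tested and dashed lines at the shares of all tested contigs, 4.9% and 2.96%. Among these 26, the lists of lipid droplet proteins, desiccation proteins and ABA signalling reach farthest to the right, and ethylene, jasmonate and WRKY lists farthest to the left.

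Contigs listed by name for ABA signalling differed by role: more receptor contigs dipped than peaked. More contigs of type 2C phosphatases, of SnRK2 and of transcription factors peaked than dipped. Of 260 contigs of ABA receptors, type 2C phosphatases, SnRK2 kinases and their transcription factors 53 peaked (20.4%) and 15 dipped (5.77%), and the list took 0.585 ± 0.0256% of reads at 60% RWC, against 0.412 ± 0.0783% in fresh leaves, 0.484 ± 0.0171% at 2% RWC and 0.396 ± 0.024% after rehydration (SD, n = 3). The sublists by role were drawn after the values were seen. Of 24 receptor contigs 9 dipped and 1, described as PYL2-like, peaked, with a median log2 fold against the mean of -2.76. A PYL8-like receptor (Cp_V2_contig_22050) stood at 1.67, 1.95 and 2.23 RPKM at 60% RWC, 27.1, 70.3 and 58.2 in fresh leaves, 15.8, 13 and 22 at 2% RWC and 75.8, 65.4 and 85.5 after rehydration. No library of another state overlapped the 60% RWC libraries, and the log2 fold against the mean was -4.27 (SE 0.32, adjusted p = 1.84e-06). A PYL2-like receptor (Cp_V2_contig_40600) had 0.54, 0 and 0.389 RPKM at 60% RWC, 4.07, 8.57 and 3.91 in fresh leaves and 15.2, 11 and 15 at 2% RWC, and 12.8, 32.6 and 58.8 after rehydration. Its level was 112-fold lower at 60% RWC than after rehydration.

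Of 187 type 2C phosphatase contigs, which oppose ABA signalling in the clade that binds the receptors, 33 peaked and 6 dipped, and their median log2 fold against the mean was 0.28. They were taken by name from any clade and make up most of the 260 contigs of the list. The clade that binds the receptors was not counted apart, so the list's shares are not shares of ABA signalling alone. Protein phosphatase 2C 37-like (Cp_V2_contig_39202), a member of the ABA clade, stood at 126, 108 and 93.1 RPKM at 60% RWC, 3.23, 3.32 and 4.21 in fresh leaves, 3.95, 5.13 and 5.06 at 2% RWC and 16.6, 12.2 and 6.86 after rehydration. The 60% RWC libraries lay above all others, and the log2 fold against the mean was 4.30 (SE 0.21, adjusted p = 9.8e-08). Protein phosphatase 2C 24 (Cp_V2_contig_11209) had the largest distance in the list, 38.2 ± 7.41 RPKM (SD, n = 3) at 60% RWC and 11.7-fold above rehydrated leaves, the nearest state. Of 20 SnRK2 contigs 5 peaked, 3 of the kinases SRK2A and SRK2B and 2 described as SnRK2 calcium sensor, a protein that inhibits SnRK2 in Arabidopsis, and 14 of the 20 were higher than the mean of the other states. These contigs too were taken by name, and kinases that ABA activates were not counted apart from others. The 5 peaks are therefore not peaks of ABA-activated kinases as such. Of 29 contigs of ABI5-like and ABA-responsive element-binding bZIP factors 14 peaked (48.3%), at 9.94 to 129 RPKM. ABI5-like protein 5 (Cp_V2_contig_42134) went from 0.541, 0.817 and 0.509 RPKM in fresh leaves to 122, 103 and 119.8 at 60% RWC and stood at 5.83, 7.13 and 4.24 at 2% RWC and 22.1, 19.8 and 11 after rehydration. It was 20-fold above 2% RWC and 6.51-fold above rehydrated leaves, with a log2 fold against the mean of 4.94 (SE 0.20, adjusted p = 2.89e-08). A second ABI5-like 5 contig (Cp_V2_contig_32508) had a like level at 60% RWC, 130.4, 139.8 and 118 RPKM, and a higher one in fresh leaves, 36.4, 7.2 and 18.9.

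Few contigs of ABA synthesis and breakdown stood beyond every state: 3 of 54 peaked (5.56%) and 1 dipped, near the 4.9 and 2.96% of all contigs. Against the mean of the other states, however, 23 of the 54 were higher and 3 lower, against 16.4 and 14.6% of all contigs. The list's median log2 fold against the mean was 0.82, against -0.01 over all contigs. The 3 that peaked were a 9-cis-epoxycarotenoid dioxygenase, the enzyme of the committed step of ABA synthesis, and 2 abscisic-aldehyde oxidase-like contigs, which make ABA from its aldehyde. The dip was NEOXANTHIN-DEFICIENT 1 (Cp_V2_contig_726), at 6.06, 5.27 and 3.9 RPKM against 10.7, 8.07 and 8.26 at 2% RWC, a call lost without 60% RWC replicate 3 or 2% RWC replicate 1. The dioxygenase (Cp_V2_contig_47487) had low levels throughout, 3.6, 4.51 and 3.06 RPKM at 60% RWC and 0.506, 0.072 and 0.518 at 2% RWC. Without fresh replicate 1 the peak count of the list was 9, and that of the 9 dioxygenase contigs 7 in place of 1.

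**Figure D4:**
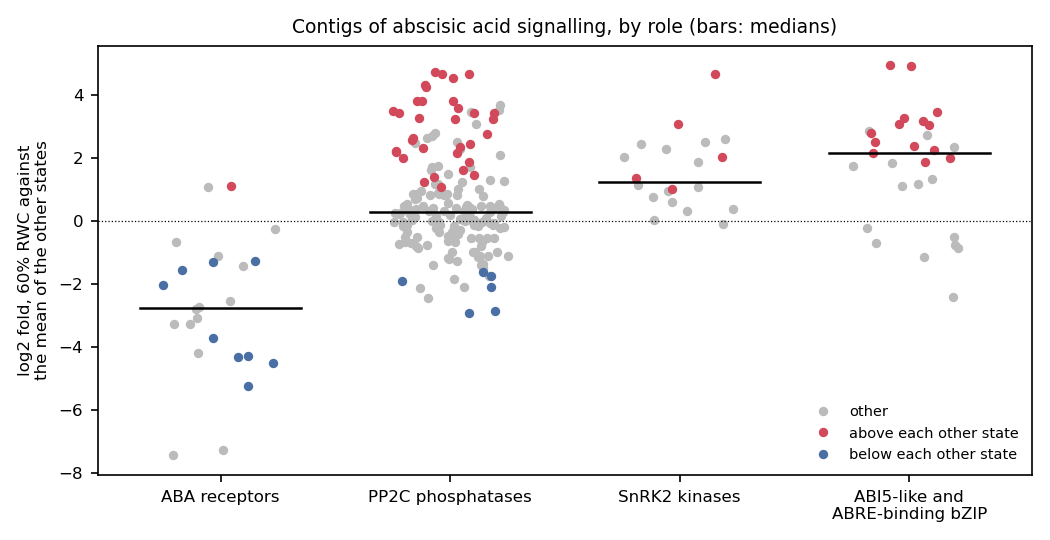
Log2 fold of 60% RWC against the mean of the other states for every tested contig of 4 roles listed for ABA signalling, with 1 point per contig and a bar at the median. The phosphatases are type 2C phosphatases of any clade. Receptor contigs have a median of -2.76 and the ABI5-like and ABRE-binding bZIP contigs one of 2.14; red points lie above each other state and blue points below each.

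Transcription factor families differed in how many contigs peaked or dipped. Among 93 homeobox-leucine zipper contigs 10 peaked (10.8%) and 3 dipped. Of the 10 that peaked 5 were described as ATHB-12-like, of 6 such contigs. ATHB-12 is an ABA-induced factor of Arabidopsis. The ATHB-12-like contig Cp_V2_contig_24807 stood at 320.1, 288 and 333 RPKM at 60% RWC, 84.7, 8.52 and 41.2 in fresh leaves, 5.53, 7.08 and 6.18 at 2% RWC and 45.9, 22.9 and 22.7 after rehydration. The fresh libraries spread widely but none reached the 60% RWC level, and the 2% RWC level was the lowest, 50.1-fold below 60% RWC. Of 57 heat stress factor contigs 9 peaked (15.8%) and 4 dipped. A peak was called for 6 of 10 contigs of factor A-2, an activator of chaperone genes, and a dip for 3 of 7 contigs of factor A-4. Without fresh replicate 2 the family's peak count was 16 and that of A-2 10, and without 60% RWC replicate 3 its dip count was 2. Factor A-2-like Cp_V2_contig_37246 stood at 435, 358 and 387 RPKM at 60% RWC, 18.8, 9.47 and 13.8 in fresh leaves, 47.1, 42.4 and 46.4 at 2% RWC and 44.8, 31.4 and 32.5 after rehydration. Factor A-4a-like Cp_V2_contig_13020 went the other way, at 2.49, 4.13 and 2.41 RPKM at 60% RWC and 36.2, 23.5 and 24.2 at 2% RWC, with a log2 fold against the mean of -2.58 (SE 0.49, adjusted p = 0.00224). Heat shock proteins and chaperones themselves had 2 contigs that peaked of 102 (1.96%), with 7 without fresh replicate 1 and 1 without rehydrated replicate 1 or any 1 of the 60% RWC libraries. Of 99 NAC contigs 12 peaked (12.1%), among them 3 of NAC 72, a drought-response factor in Arabidopsis, and 5 of NAC 89-like, and 7 NAC contigs peaked without 60% RWC replicate 1. A NAC 104-like contig (Cp_V2_contig_46174) had the largest distance, 70.3, 53.4 and 55.3 RPKM at 60% RWC and 7, 5.3 and 2.39 after rehydration. The zinc finger protein ZAT10-like (Cp_V2_contig_25154), a stress-responsive repressor family, had 192, 97.3 and 171 RPKM at 60% RWC, 4.76, 1.39 and 5.12 in fresh leaves and 8.95, 8.29 and 7.27 at 2% RWC.

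WRKY factors, known for roles in defence and stress, held contigs that dipped. Of 126 contigs 14 dipped (11.1%), and 8 dipped without 60% RWC replicate 3. No WRKY contig peaked in edgeR's test, against 1 with unadjusted p below 0.05 and 1 each by DESeq2 and limma voom. WRKY 40 (Cp_V2_contig_12401), a repressor of defence and ABA responses in Arabidopsis, stood at 1.94, 1.74 and 1.26 RPKM at 60% RWC, 40.5, 16.8 and 12.4 in fresh leaves, 13, 14.5 and 17.9 at 2% RWC and 12.6, 10.7 and 57.9 after rehydration. Rehydrated replicate 3 was high, and no library overlapped those at 60% RWC. Of 182 ERF and DREB contigs 4 peaked (2.2%) and 8 dipped (4.4%), against 4.9 and 2.96% of all contigs. The peak count was 7 without fresh replicate 1 and 2 without fresh replicate 3 or 60% RWC replicate 3. An ERF098-like factor (Cp_V2_contig_38291) had no read in any 60% RWC library, while fresh leaves held 56.6, 22.1 and 3.6 RPKM, 2% RWC 14.2, 5.7 and 8.2 and rehydrated leaves 5.88, 6.84 and 69.9. With 3 counts per library as a floor it was at least 17.4-fold lower at 60% RWC than at 2% RWC, and the bound against fresh leaves was 51.0-fold. Of 207 MYB contigs 8 peaked (3.86%), with 5 that peaked without 60% RWC replicate 1 or 2 or 2% RWC replicate 2.

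Among enzymes of soluble sugars, some families held many contigs that peaked and others few. Of 47 trehalose enzyme contigs 0 peaked, with 2 without fresh replicate 2 and 1 without 2% RWC replicate 2. Of 14 galactinol synthase contigs 1 peaked, a call lost without most single libraries. Of 58 contigs of sucrose synthesis and cleavage 8 peaked (13.8%), all of them sucrose synthases, which cleave or make sucrose reversibly, out of 14 such contigs. The most abundant of them (Cp_V2_contig_881) stood at 787, 852 and 729 RPKM at 60% RWC, 52.7, 8.55 and 7.63 in fresh leaves, 105, 122.6 and 81.6 at 2% RWC and 57.8, 44.5 and 21.2 after rehydration. Fresh replicate 1 was far above the other fresh libraries, all of them below 60% RWC, and the log2 fold against 2% RWC was 2.82 (SE 0.70, adjusted p = 0.00714). The soluble acid invertase of the list (Cp_V2_contig_2525), which cleaves sucrose in the vacuole, dipped, at 16.3, 8.54 and 12.3 RPKM at 60% RWC, 28.1, 25.1 and 20.9 at 2% RWC and 53.4, 48.2 and 60.1 in fresh leaves. Of 57 sugar transporter contigs 5 peaked, 2 of the vacuolar sucrose exporter SUC4 and 3 of monosaccharide-sensing protein 2, a vacuolar sugar carrier. SUC4-like Cp_V2_contig_1300 had 226, 214 and 205 RPKM at 60% RWC, 38.5, 35.9 and 27.5 at 2% RWC, 49.4, 39.3 and 26.5 after rehydration and 5.99, 2.17 and 6.04 in fresh leaves, 5.6-fold above the nearest state. Of 99 contigs of raffinose family sugars, which accumulate in seeds and drying leaves, 11 peaked (11.1%), 6 of them stachyose synthases. Against the mean of the other states 30 of the 99 were higher and 29 lower, and the median log2 fold was -0.45. The list took 0.602 ± 0.0327% of reads at 60% RWC and 0.703 ± 0.358% in fresh leaves (SD, n = 3). The list's count was 6 or 7 without 60% RWC replicate 1, any 1 of the 2% RWC libraries, or rehydrated replicate 2 or 3, and that of the stachyose synthases 2 or 3 in the same cases. Stachyose synthase Cp_V2_contig_39071 stood at 48.8, 35.5 and 26.1 RPKM at 60% RWC, 3.91, 5.27 and 3.88 at 2% RWC and 9.9, 4.74 and 2.85 after rehydration, and had reads in 1 fresh library only, at 0.944 RPKM. Alpha-galactosidases, which break these sugars down, peaked in 6 of 15 contigs.

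Transketolases, which shuttle sugar carbons in the pentose phosphate and Calvin cycles and are known in this species for forms linked to rehydration, fell into 2 groups. Of 26 contigs 8 peaked, in every alternative that left out 1 library, while 14 were lower at 60% RWC than in fresh leaves. A chloroplastic-like form (Cp_V2_contig_31210) rose from 2.12, 0.688 and 0.982 RPKM in fresh leaves to 195, 197 and 159.8 at 60% RWC and stood at 52.4, 63.9 and 44.8 at 2% RWC and 12.4, 11.7 and 5.24 after rehydration. Aldose reductases, which reduce sugars and toxic aldehydes, peaked in 7 of 8 contigs, by small steps over 2% RWC, with log2 folds of 0.76 to 1.62 against the nearest state. The contig Cp_V2_contig_33547 stood at 961, 866 and 885 RPKM at 60% RWC and 515, 467 and 495 at 2% RWC, against 2.99, 2.98 and 2.55 in fresh leaves. In the list of aldehyde dehydrogenases and aldo-keto reductases, which clear aldehydes from damaged lipids, 17 of 67 contigs peaked (25.4%). An aldehyde dehydrogenase of family 3 (Cp_V2_contig_47354) had 81.5, 79.4 and 58.3 RPKM at 60% RWC, 12.9, 16.8 and 8.88 at 2% RWC and 3.73, 3.33 and 1.65 after rehydration. Of 75 starch enzyme contigs 8 peaked (10.7%), among them isoamylase 3, which debranches starch during its breakdown, with 5 left without 60% RWC replicate 1 or 3.

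Some contigs of the 4-aminobutyrate shunt and of amide storage also peaked, while their families were mixed. Of 13 glutamate decarboxylase contigs 7 were lower at 60% RWC than in fresh leaves. Of 49 contigs of proline and nitrogen metabolism 20 were lower than the mean of the other states and 5 higher. Glutamate decarboxylase (Cp_V2_contig_35319), which makes 4-aminobutyrate, stood at 163, 162 and 158 RPKM at 60% RWC, 4.91, 0.819 and 4.36 in fresh leaves, 6.34, 6.82 and 4.05 at 2% RWC and 16.6, 10.2 and 6.41 after rehydration. Of 13 such contigs 4 peaked, at 161 to 287 RPKM, and 3 dipped, at 0.384 to 0.757 RPKM, with 1 that dipped without fresh replicate 1, any 60% RWC library or 2% RWC replicate 1. Gamma aminobutyrate transaminase 1 (Cp_V2_contig_450), which feeds this compound into the mitochondrion's cycle, had 641, 547 and 625 RPKM at 60% RWC, 32.1, 39.5 and 28.9 in fresh leaves, 78.7, 77.4 and 60.2 at 2% RWC and 33, 37.4 and 28.5 after rehydration, with a log2 fold against the mean of 3.90 (SE 0.12, adjusted p = 9.15e-09). Asparagine synthetase (Cp_V2_contig_20580), which stores nitrogen in asparagine, had 573, 439 and 440.3 RPKM at 60% RWC, against 43.7, 45.6 and 56.1 at 2% RWC and 19.4, 36.4 and 46.4 in fresh leaves. It was the only 1 of 7 asparagine synthetase contigs to peak.

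Membrane lipid enzymes, lipid droplet proteins and vacuolar proton pumps held many contigs that peaked. Of 26 contigs of lipid droplet proteins and triacylglycerol synthesis 9 peaked (34.6%) and none dipped in edgeR, DESeq2, limma voom or with unadjusted p. These were 3 oil body-associated proteins, 4 peroxygenases (caleosins, which coat lipid droplets) and 2 diacylglycerol acyltransferases, which make triacylglycerol. Oil body-associated protein 2C (Cp_V2_contig_5748) stood at 263, 238 and 287 RPKM at 60% RWC, 52.6, 3.76 and 16.4 in fresh leaves, 34.4, 28.4 and 23.8 at 2% RWC and 34.5, 26.8 and 16 after rehydration. Oleosins, the other coat proteins, did not peak in any of 6 contigs by edgeR, DESeq2, limma voom or unadjusted p, and took 0.0157 ± 0.00256% of reads at 60% RWC and 0.0825 ± 0.00474% at 2% RWC (SD, n = 3). Of 110 phospholipase contigs 16 peaked (14.5%), 8 of them phospholipases D, which cleave membrane lipids to phosphatidic acid in stress. Another 6 of the 110 dipped (5.45%, against 2.96% of all contigs), with 2 left without 60% RWC replicate 2 or 3. Against the mean of the other states 30 phospholipase contigs were higher and 24 lower. Phospholipase D delta-like Cp_V2_contig_21807 had 256, 256 and 237 RPKM at 60% RWC, 24.8, 43 and 12.6 in fresh leaves, 54.2, 54.9 and 40.8 at 2% RWC and 25.2, 29.8 and 14.3 after rehydration. Phospholipase D alpha 1 (Cp_V2_contig_17105) had 272, 272 and 276 at 60% RWC and was 3.4-fold above 2% RWC, the nearest state. Of 81 contigs of the V-type proton ATPase, the pump that energises the vacuole membrane, 23 peaked (28.4%), with 14 and 15 that peaked without 60% RWC replicate 2 or 3. A dip was called for 4 of the 81 (4.94%), with 0 left without 60% RWC replicate 1 or 2. The list took 0.261 ± 0.00819% of reads (SD, n = 3) at 60% RWC, 0.198 ± 0.0124% at 2% RWC, 0.157 ± 0.00996% in fresh leaves and 0.143 ± 0.00561% after rehydration. Of 37 CSC1-like contigs, a family that includes osmosensitive calcium channels, 13 peaked (35.1%), at 19.1 to 53.7 RPKM. The phospholipase D, ATPase and CSC1-like sublists were chosen after values were seen.

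Antioxidant enzymes divided by enzyme: of 114 contigs 11 peaked and 11 dipped, 9.65% each. Of the 11 that peaked 6 were glutathione reductases, which recycle glutathione, out of 12 such contigs, and of the 11 that dipped 7 were ascorbate peroxidases, which remove hydrogen peroxide with ascorbate, out of 17. These counts of 6 and 7 held when any 1 library was left out. The enzyme groups were not among the planned lists. Chloroplastic glutathione reductase Cp_V2_contig_10492 stood at 101.3, 116 and 85.2 RPKM at 60% RWC, 35.4, 35.1 and 44.9 in fresh leaves, 38.3, 38.1 and 28 at 2% RWC and 24.2, 31.9 and 27.7 after rehydration, a difference of 2.9-fold from 2% RWC. Cytosolic ascorbate peroxidase 1 (Cp_V2_contig_6114) stood at 194, 173 and 184 RPKM at 60% RWC, 472, 692 and 479 in fresh leaves, 766, 696 and 674 at 2% RWC and 959.7, 1154 and 1157 after rehydration. Its 3 libraries at 60% RWC lay below the 9 others, with a log2 fold against the mean of -1.94 (SE 0.14, adjusted p = 1.61e-06). Ascorbate peroxidase 6 (Cp_V2_contig_896) had 4.59, 5.87 and 5.08 RPKM at 60% RWC and 198, 146 and 111 at 2% RWC, 29.3-fold lower, with 9.8% of its reads also matching other contigs.

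Transcripts of photosynthesis were mostly low in both dried states. Small shares of the light-harvesting list and of the photosystem and thylakoid list dipped at 60% RWC, though above the 2.96% of all contigs. Of 36 light-harvesting contigs 24 were lower than the mean of the other states and 2 dipped (5.56%), chlorophyll a-b binding protein 8 and a light-harvesting complex-like protein 3, with 4 without fresh replicate 3 and 1 without 60% or 2% RWC replicate 1 or 3 or rehydrated replicate 1 or 2. Chlorophyll a-b binding protein 8 (Cp_V2_contig_1767) stood at 26.2, 27.4 and 30.2 RPKM at 60% RWC and 45.4, 35.8 and 41.4 at 2% RWC, against 288, 383 and 243 in fresh leaves and 344, 295 and 258 after rehydration. The dried states did not overlap but differed by a log2 fold of only -0.66 (SE 0.18, adjusted p = 0.0101). Of 135 photosystem and thylakoid contigs 10 dipped (7.41%) and 5 peaked (3.7%). The dip count was 5 without 60% RWC replicate 1 or 2, 6 without 2% RWC replicate 1 or 2, and 18 without fresh replicate 3. All 5 that peaked were THYLAKOID FORMATION1, a protein of thylakoid biogenesis and leaf greening, and they were all of its 5 contigs, with 3 left without any 1 of the 60% RWC libraries. The contig Cp_V2_contig_12310 of that protein stood at 655, 762 and 749 RPKM at 60% RWC, 118, 188 and 284 in fresh leaves, 274, 254 and 253 at 2% RWC and 135, 115 and 117 after rehydration. Glycine dehydrogenase (Cp_V2_contig_1205), a mitochondrial enzyme of photorespiration, dipped, at 25.1, 28.7 and 27.6 RPKM at 60% RWC, 90.7, 99.5 and 95.5 at 2% RWC and 529, 494 and 308 after rehydration. Pheophorbide a oxygenase (Cp_V2_contig_215), an enzyme of chlorophyll breakdown, peaked, at 186, 201 and 185 RPKM at 60% RWC, 57.7, 88.6 and 53.2 in fresh leaves, 53, 44.1 and 39.7 at 2% RWC and 57, 53.6 and 45 after rehydration. It was 1 of 5 contigs that peaked among 54 of senescence and chlorophyll breakdown (9.26%), with 3 without 60% RWC replicate 1 or 2% RWC replicate 3.

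Within the upper 50% of contigs by mean level, the described contigs far below every other state included enzymes of lipid desaturation, alcohol and nucleotide metabolism and vitamin B6 synthesis. Among them were several with no named function, the first of which (Cp_V2_contig_8224) stood at 0.233, 0.136 and 0.0629 RPKM at 60% RWC, 23.1, 38.2 and 74 in fresh leaves, 5.1, 5.23 and 6.9 at 2% RWC and 30.6, 21.1 and 24.5 after rehydration. Chloroplastic omega-6 fatty acid desaturase (Cp_V2_contig_29132), which adds a double bond to plastid fatty acids, stood at 0.608, 0 and 0.329 RPKM at 60% RWC, 36.2, 25.3 and 76.8 in fresh leaves, 13.5, 9.07 and 12.9 at 2% RWC and 110.0, 126 and 240.0 after rehydration. It was highest after rehydration and 37.8-fold lower at 60% than at 2% RWC, the nearest state, with a log2 fold against the mean of -6.92 (SE 0.69, adjusted p = 2.1e-05). Alcohol dehydrogenase-like 4 (Cp_V2_contig_1972) had 3.25, 3.37 and 1.82 RPKM at 60% RWC, 65.1, 107 and 54.4 in fresh leaves, 97, 82.3 and 79 at 2% RWC and 51.3, 63.5 and 45.2 after rehydration. The other states lay close together, and the level at 60% RWC was 18.9-fold lower than after rehydration. A deoxyuridine triphosphate nucleotidohydrolase-like contig (Cp_V2_contig_5002), which keeps uracil out of DNA, had 1.71, 3.76 and 2.06 RPKM at 60% RWC and 35, 30 and 34.2 at 2% RWC. For the lignin-forming anionic peroxidase among these contigs (Cp_V2_contig_18867) the dip was lost without fresh replicate 1 or without 60% RWC replicate 1 or 3, and rehydrated replicate 3 held 294 RPKM against 16.8 and 13.3 in the others. For the probable polygalacturonase (Cp_V2_contig_6977), 32.5% of reads also matched other contigs.

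**Figure D5:**
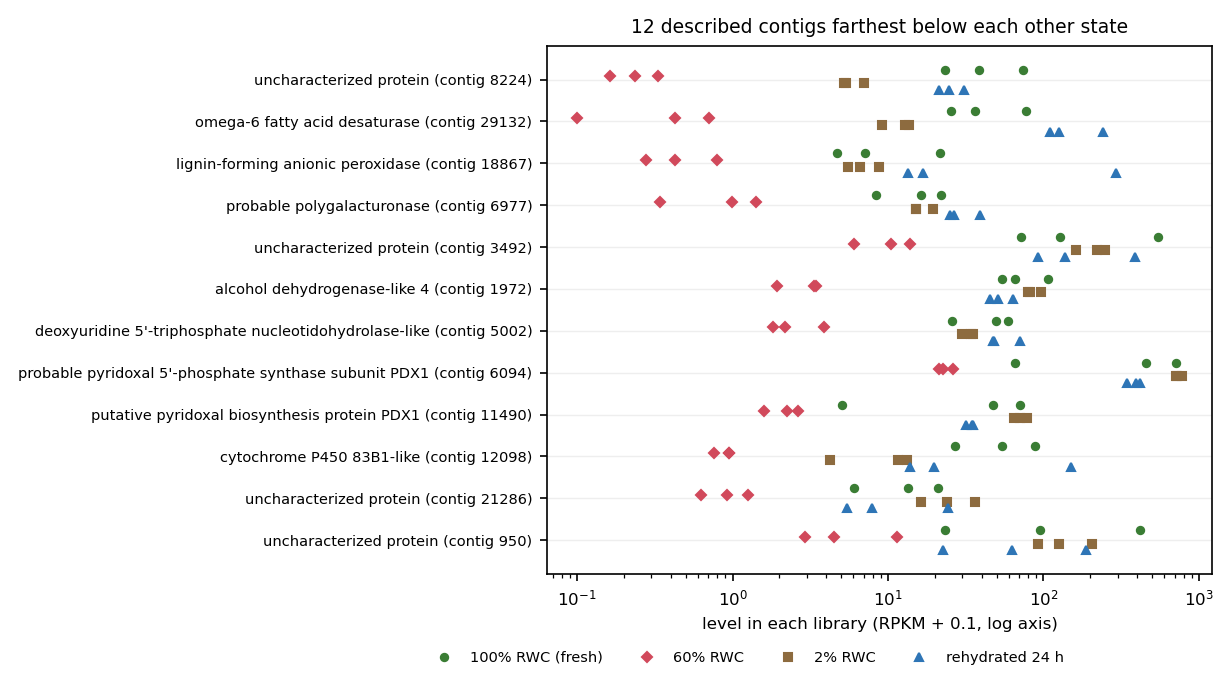
Level of 12 described contigs, 1 per description and with no overlap between 60% RWC and other libraries, with the largest distance below each other state within the upper 50% of contigs by mean level, as RPKM + 0.1 on a log axis, with 1 symbol per library and 3 libraries per state. In every row the 60% RWC libraries lie below the 9 others, and the fresh and rehydrated libraries of several contigs spread widely.

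Several enzyme families dipped together, chosen here after their values were seen. Of 10 contigs of PDX1, a subunit of the enzyme that makes pyridoxal phosphate (vitamin B6), 7 dipped. Contig Cp_V2_contig_6094 of this enzyme stood at 22.4, 21.3 and 26.1 RPKM at 60% RWC, 456, 65.7 and 711 in fresh leaves, 719, 710.2 and 777 at 2% RWC and 343, 392 and 418 after rehydration. Fresh replicate 2 was low, yet above the 60% RWC libraries, and the level at 2% RWC was 31.6-fold that at 60% RWC. Of 13 cytosolic fructose-bisphosphate aldolases, enzymes of glycolysis, 6 dipped. The isoform 6 contig Cp_V2_contig_328 stood at 42.4, 48 and 59.3 RPKM at 60% RWC, 250.0, 125 and 802 in fresh leaves, 702, 650.2 and 693 at 2% RWC and 732, 799 and 841 after rehydration. Of 12 contigs of phylloquinone synthesis, which makes the quinone of photosystem I, 9 dipped. The 2-succinylbenzoate-CoA ligase Cp_V2_contig_1208 had 25.3, 21.1 and 15.5 RPKM at 60% RWC and 279, 234 and 279 at 2% RWC, with a log2 fold against the mean of -3.56 (SE 0.43, adjusted p = 9.36e-05). The naphthoyl-CoA synthase Cp_V2_contig_20165 had 151, 146 and 108 at 60% RWC and 641, 539.6 and 345 at 2% RWC. Of 15 allergens of the PR-10 type, proteins linked to pathogen defence, 12 dipped. A Pru ar 1-like contig (Cp_V2_contig_202) stood at 68.1, 75.3 and 69.7 RPKM at 60% RWC, 479.7, 711 and 483 in fresh leaves, 652, 445 and 283 at 2% RWC and 389, 598 and 1509 after rehydration, with 11.4% of reads shared with other contigs.

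The lists of ethylene, jasmonate and receptor kinases held more contigs that dipped than that peaked. Of 60 ethylene synthesis and receptor contigs 9 dipped (15.0%), 5 without 60% RWC replicate 1 or rehydrated replicate 3 and 4 without 60% RWC replicate 2. ACC oxidase (Cp_V2_contig_601), which makes ethylene, stood at 113, 113 and 94.2 RPKM at 60% RWC, 799.9, 864 and 522 in fresh leaves, 316, 282 and 271 at 2% RWC and 935, 904 and 744 after rehydration. Its libraries at 60% RWC lay below all others, with a log2 fold against 2% RWC of -1.56 (SE 0.21, adjusted p = 0.000145). EIN3-binding F-box proteins, which mark the ethylene factor EIN3 for degradation, dipped in 7 of 12 contigs. Of 89 contigs in the jasmonate list, which also holds 9S-lipoxygenases, 11 dipped (12.4%) and 5 peaked (5.62%). The dip count was 1 to 5 without any 1 of the 60% or 2% RWC libraries, namely 3, 1 and 1 without 60% RWC replicates 1, 2 and 3 and 4, 4 and 5 without those at 2% RWC. The 9S-lipoxygenases oxidise linoleate but are not enzymes of jasmonate synthesis. They divided into 4 contigs that peaked and 5 that dipped, of 14, and these are counted in the list's totals. The dips were all lost without any 1 of the 60% or 2% RWC libraries, and 2 were left without rehydrated replicate 2. 9S-lipoxygenase 5 Cp_V2_contig_43995 peaked, at 31, 30.7 and 38.6 RPKM at 60% RWC, 1.34, 2.75 and 4.31 in fresh leaves, 5.75, 4.22 and 0.392 at 2% RWC and 3.56, 5.03 and 3.69 after rehydration. Of 1122 receptor-like kinase contigs, sensors of the cell surface, 84 dipped (7.49%) and 11 peaked (0.98%), with 7 peaks without 60% RWC replicate 1 or 2, and with 49, 46 and 39 dips without 60% RWC replicate 1, 2 or 3. Of 300 calcium signalling contigs 17 dipped (5.67%) and 11 peaked (3.67%), with 10 dips without 60% RWC replicate 1 or 3 or 2% RWC replicate 2. A calmodulin contig (Cp_V2_contig_7704), the general calcium sensor, stood at 1.71, 5.11 and 1.28 RPKM at 60% RWC, 169.5, 37.3 and 39.2 in fresh leaves, 22.1, 21 and 23 at 2% RWC and 15.6, 31.6 and 39 after rehydration.

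Several other lists held few contigs that peaked or dipped. Early light-induced proteins, which protect thylakoids from excess light, had no contig of 30 that peaked or dipped in edgeR, DESeq2, limma voom or with unadjusted p, although 21 were higher than the mean of the other states. Their median log2 fold was 7.54 against fresh leaves and -1.34 against 2% RWC. Proteasome subunits had none of 115 by the same tests. Circadian clock contigs had 1 that dipped of 83, APRR5 (Cp_V2_contig_14741), and that call was lost without most single libraries. Of 415 cytosolic ribosomal protein contigs 10 peaked (2.41%), and 22 did without fresh replicate 2. Against the mean of the other states, however, 121 of the 415 were higher and 6 lower, against 16.4 and 14.6% of all contigs. Their median log2 fold against the mean was 0.42. Transposon contigs stood apart from these lists, with 41 of 552 that peaked (7.43%) and 4 that dipped (0.725%), against 4.9 and 2.96% of all contigs. The transposon list as a whole was not highest at 60% RWC. It took 0.736 ± 0.0627% of reads there, 1.17 ± 0.156% at 2% RWC, 0.844 ± 0.18% after rehydration and 0.426 ± 0.0558% in fresh leaves (SD, n = 3).

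Markers of other cell types were set beside these results. Epidermis and cuticle markers had 14 contigs that dipped of 120 (11.7%) and 1 that peaked, and their summed share of reads was 0.0491 to 0.0552% at 60% RWC, 0.128 to 0.182% in fresh leaves, 0.0358 to 0.0395% at 2% RWC and 0.129 to 0.137% after rehydration. In this list 1 marker had no read at 60% RWC and 7 had none at 2% RWC. Guard cell markers had 1 that peaked of 30, potassium channel KAT3, and a share of 0.0129 to 0.0131% at 60% RWC against 0.0236 to 0.0477% in fresh leaves, 0.0054 to 0.00601% at 2% RWC and 0.0258 to 0.0335% after rehydration. Vascular markers had 2 that peaked of 33, both SUC4-like, and shares of 0.0643 to 0.0682% at 60% RWC, 0.0427 to 0.0479% in fresh leaves, 0.0344 to 0.0376% at 2% RWC and 0.0297 to 0.0329% after rehydration. Of 14 root markers 3 peaked, all described as ROOT HAIR DEFECTIVE 3-like, a protein that shapes the endoplasmic reticulum in many cell types, and the share of the list was 0.0271 to 0.0275% at 60% RWC, 0.0142 to 0.024% in fresh leaves, 0.0278 to 0.0307% at 2% RWC and 0.0231 to 0.0259% after rehydration. The largest of these (Cp_V2_contig_43510) had 40.4, 39.2 and 39.3 RPKM at 60% RWC and 5.52, 5.48 and 3.73 at 2% RWC. Flower markers had 2 that peaked and 3 that dipped of 58, at most 1 of each without 60% RWC replicate 3, and a share of 0.0225 to 0.0234% at 60% RWC, 0.0382 to 0.0399% in fresh leaves, 0.0225 to 0.0255% at 2% RWC and 0.0324 to 0.0388% after rehydration. The part of cell type proportions in the differences above was not tested.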

How the data were processed

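Leaf RNA was sequenced with a stranded kit as paired reads of 75 bases, per the labels' protocols, and reads were counted on a transcriptome assembled from leaf, root and flower RNA. The mapping tools and the strand setting of the counting were not given in the sources used here, so overlapping and antisense transcripts cannot be separated. The deposited table holds raw read counts per contig and library, total and unique, from which RPKM values were deposited beside them by the authors. The p-values and FDR of a test over the 4 states are the authors' own, per the file headers, and were only set beside the calls. Library totals were 14784251 to 21271288 reads, of which 98.52 to 98.71% were unique reads.

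Total counts of all 12 libraries were fitted together in edgeR 4.0.16 (R 4.3.3, quasi-likelihood, robust) with TMM factors, after filtering contigs with filterByExpr (minimum count 10, minimum total 15). The contrast was 60% RWC minus the mean of the 3 other states on the log scale, together with 3 pairwise contrasts, each with Benjamini-Hochberg adjustment at 0.05 over all contigs tested. Contigs named were the 12 described peaks and 12 dips with the largest distance from the nearest state in the upper 50% by mean level, 3 libraries outside the range of the 9 others, 6 of each with the highest levels, and the extreme peak and dip of each of 26 core lists, 73 in all. A further 42 were added after their values were seen. Members and lists were chosen with earlier results of these data known. Counts for single families come from 44 sublists that were not among the planned lists. Several of them were drawn after values were seen, so these counts describe the families and are no planned result. On simulated counts with 8-fold peaks 33 of 33 were called, with 4-fold peaks 20 of 33 and with 2-fold peaks 0 of 34, and for dips 30 of 33, 11 of 34 and 0 of 33. Nearly all simulated contigs were unchanged and all contigs of a state had the same spread, unlike the data, so these rates do not carry over. Alternatives used DESeq2 1.42.0 and limma 3.58.1. Tables were handled in Python 3.11.15 with pandas 2.3.3 and SciPy 1.17.1. Contig sequences were not used here.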

Additional observations from a re-analysis of the deposited data

How the results depend on the processing

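Across 23 settings no named contig changed direction. With DESeq2 or library size factors, the DESeq2 test, limma voom, unique reads or no filter, the numbers of contigs that peaked, dipped or differed in the contrast with the mean stayed within 1.5 times of the values above. With an adjusted p below 0.01, 1392 contigs peaked and 520 dipped, the contrast with the mean gave 4947 higher and 3395 lower, and the pairwise comparisons gave 4356 higher and 6587 lower than fresh leaves, 7703 and 5862 against 2% RWC, and 5211 and 5538 against rehydrated leaves. A single adjusted p for the largest of the pairwise p-values left 627 dips. With the 6 libraries of the pair alone, 4450 contigs were higher and 7316 lower than in fresh leaves. The same setting gave 14104 higher and 13523 lower against 2% RWC, and 10326 and 11734 against rehydrated leaves. The main fit shares 1 estimate of the spread per contig over all states, although the spread differed between states. Its pairwise counts carry this limit. Leaving out 1 library at a time gave 1705 to 2670 peaks, 775 to 1829 dips, and 5471 to 9774 higher and 3950 to 8641 lower contigs in the contrast with the mean. The causes of these shifts were not tested. Library totals alone moved the median log2 fold of all contigs from -0.04 to -0.31 against rehydrated leaves. The replicate numbers did not pair the samples: correlation of deviations exceeded 0.1 in 2 of 18 same-number pairs, from -0.124 to 0.222, and with a replicate block 2227 contigs peaked and 1236 dipped. In simulated counts of 45945 contigs with 3 libraries per state, no 2-fold peak or dip was called, of 34 and 33. Nearly all simulated contigs were unchanged and shared 1 spread per state, unlike the data, so this result does not carry over.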
